A study of Mus musculus with 6 samples.

Results

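Trace amine-associated receptors are a small family of G protein-coupled receptors, and 10 of them, Taar2, Taar3, Taar4, Taar5, Taar6, Taar7a, Taar7b, Taar7d, Taar7e and Taar7f, were described here in the olfactory mucosa of mice with 1 naris closed. They were taken by gene symbol from a table of 24315 rows, which holds 15 rows of the family. The tissue was whole olfactory mucosa of wild-type C57BL/6 mice at postnatal day 11, and each of 3 mice gave 1 library from the closed and 1 from the open nostril. The samples include no unoperated mice, and the open nostril is thus the only reference for each closed one. When the naris was closed, and for how long, is not given in the sources used here.

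In mice all members of the family except Taar1 are odorant receptors. Each is carried by a small population of olfactory sensory neurons that choose 1 such receptor in place of a classical olfactory receptor (gene symbol Olfr), and these neurons use the same G protein, cyclase and channel as their neighbours. Many of the ligands are volatile amines from urine, spoiled food and predators. Taar1 is a sensor of trace amines in the brain and not an odorant receptor.

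The genes fall into those with a single copy and the Taar7 group. In the GRCm38 annotation all 10 lie on chromosome 10, in the order Taar2, Taar3, Taar4, Taar5, Taar6, Taar7a, Taar7b, Taar7d, Taar7e and Taar7f, and their annotated models hold coding sequence alone. Taar2 has 2 coding exons and the other 9 genes have 1. Coding lengths ran from 1014 bases for Taar5 to 1077 bases for each Taar7 gene. Between any pair of the 5 Taar7 genes 91.7% to 95.4% of aligned coding bases were identical, against 52.6% to 69.6% for the other 35 pairs, of which Taar6 and Taar7a were the closest. The 5 Taar7 coding sequences are shown because their likeness bears on how reads can be told apart. They differ at 140 of 1077 positions, and 31 of these lie in the first 60 bases, printed here 5′ to 3′ from the start codon of the GENCODE M21 transcripts with capitals at the positions where the 5 genes are not all alike.
Taar7a: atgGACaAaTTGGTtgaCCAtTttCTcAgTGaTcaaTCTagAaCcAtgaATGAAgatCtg
Taar7b: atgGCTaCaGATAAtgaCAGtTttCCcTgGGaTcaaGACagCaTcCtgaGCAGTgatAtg
Taar7d: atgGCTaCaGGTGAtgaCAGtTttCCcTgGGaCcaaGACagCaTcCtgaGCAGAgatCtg
Taar7e: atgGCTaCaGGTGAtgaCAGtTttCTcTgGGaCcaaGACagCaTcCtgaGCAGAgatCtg
Taar7f: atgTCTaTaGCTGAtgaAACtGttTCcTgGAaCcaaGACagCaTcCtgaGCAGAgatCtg
Taar7a differs from the other 4 genes at 22 to 28 of these 60 positions, whereas Taar7d and Taar7e differ at 1. The longest stretch that all 5 genes share covers coding positions 688 to 764.
Shared stretch: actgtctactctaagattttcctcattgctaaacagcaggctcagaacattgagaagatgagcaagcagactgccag
These 77 bases are longer than a read, which had 51 bases at each end of the fragment. A window of 51 bases stands here for 1 end of a fragment, and pairs of ends were not counted. Of such windows, 53.2% in Taar7e, 50.6% in Taar7f, 39.7% in Taar7b, 37.4% in Taar7a and 28.9% in Taar7d also occur in another Taar gene. In Taar2, Taar3, Taar4, Taar5 and Taar6 none does. The assignment of 1 end to a single Taar7 gene is therefore less certain than to the other 5, since the handling of reads that match several copies is not given in the sources used here. This concerns assignment and not the spread between libraries.

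Libraries held 24958172 to 43584803 recorded reads, of which 93.28% to 96.99% were aligned, and the RNA integrity number was 10 in each. The closed library of mouse 1 was the shallowest and stood apart in the share of its FPKM (fragments per length of transcript and per size of library) in rows of small RNA genes, where it had 11.3% and the other libraries 3.47% to 5.27%. Without that library the log2 change between sides, closed minus open, moved from 0.00 to 0.19 for Taar7b, from -0.09 to -0.29 for Taar5, from -0.01 to -0.12 for Taar7d and from -0.24 to -0.32 for Taar7a. The FPKM of the Taar genes were whole multiples of the value of 1 fragment, so that fragments behind each value could be recovered. With 1 fragment length and 1 total fitted per library on 12 Taar genes, every one of 84 values came within 0.000532 of a whole number, among them 12 values of Taar2 and Taar8c that the fit had not used. The implied totals were 17770457 to 33739341 mapped fragments, or 71.2% to 80.5% of the recorded reads. The 10 genes together had 3477 fragments, from 395 in the closed library of mouse 1 to 743 in the open library of mouse 3. No Taar7 value called for a fraction of a fragment.

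All 10 genes were detected in every library, at levels between 0.473 and 8.53 FPKM. Taar6 was the highest at 6.13 FPKM on average and stood above Taar7a, the next at 3.13 FPKM, in 6 of 6 libraries without overlap. Taar7a exceeded Taar2 in 5 of 6 libraries, by 0.74 FPKM on average against a standard deviation (SD) of 0.45. Below them came Taar2 at 2.39, Taar5 at 2.31, Taar7d at 2.17, Taar7b at 1.84, Taar7f at 1.81, Taar7e at 1.80 and Taar4 at 1.78 FPKM. From Taar2 down to Taar4, neighbours in this order differed by less than the spread between libraries. Taar3 was lowest at 0.854 FPKM and lay below Taar4 in 6 of 6 libraries, although the ranges of the pair overlapped.

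**Figure D1:**
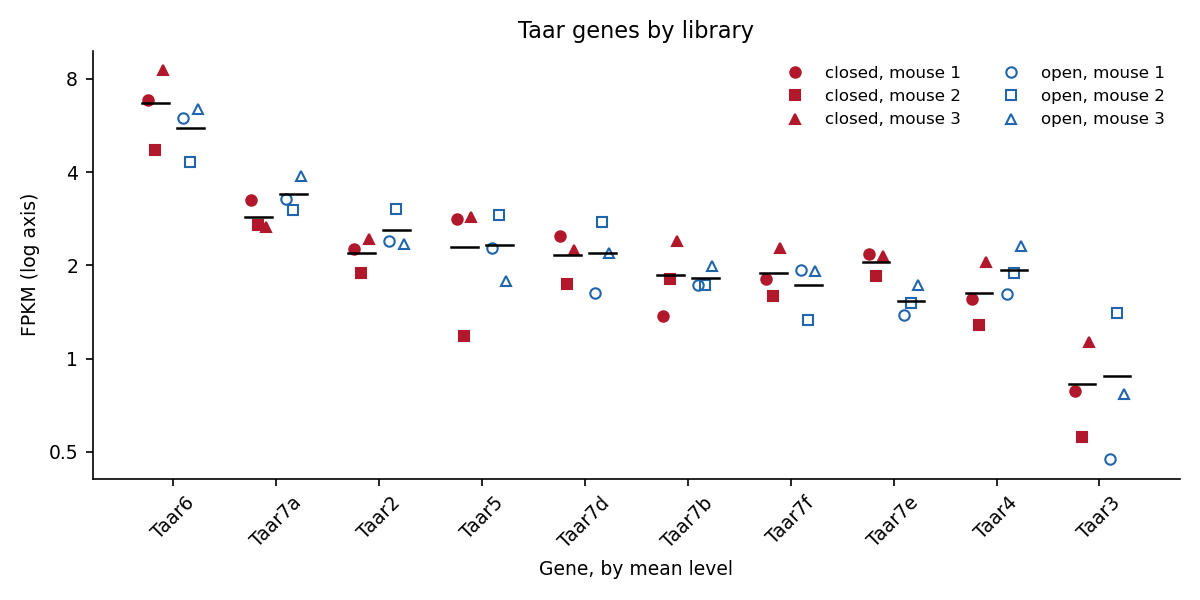
FPKM of the 10 Taar genes (log axis) in 3 closed libraries (filled red) and 3 open libraries (open blue), with the shape giving the mouse and the black line the mean of a side. Taar6 lies highest in every library and only the 2 sides of Taar7e do not overlap.

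None of the 10 genes passed the test between the sides (limma over 17987 rows, adjusted p = 0.999999 for each), where 6 rows or 0.0334% of all rows were called, 0.0278% lower and 0.00556% higher in closed libraries. With the mouse as a block 0 of the 10 and 0.0278% of all rows were called. Unless the block is named, standard errors and 95% intervals of changes between sides come from the fit without it. None was under 0.05 unadjusted either, against 1.75% of all rows. The log2 change, closed minus open on log2(FPKM + 0.1), ran from -0.25 for Taar4 to 0.40 for Taar7e, with 4 genes above and 6 below 0. The median was -0.01 over the 10 genes and also -0.01 over all rows tested. The 95% interval of the ratio of closed over open was widest for Taar3, from 0.531 to 1.84. It was narrower for Taar7a, from 0.641 to 1.13, for Taar2, from 0.628 to 1.16, and for Taar7e, from 0.973 to 1.78. In bulk tissue, fewer neurons with a receptor and less RNA per neuron cannot be told apart.

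**Figure D2:**
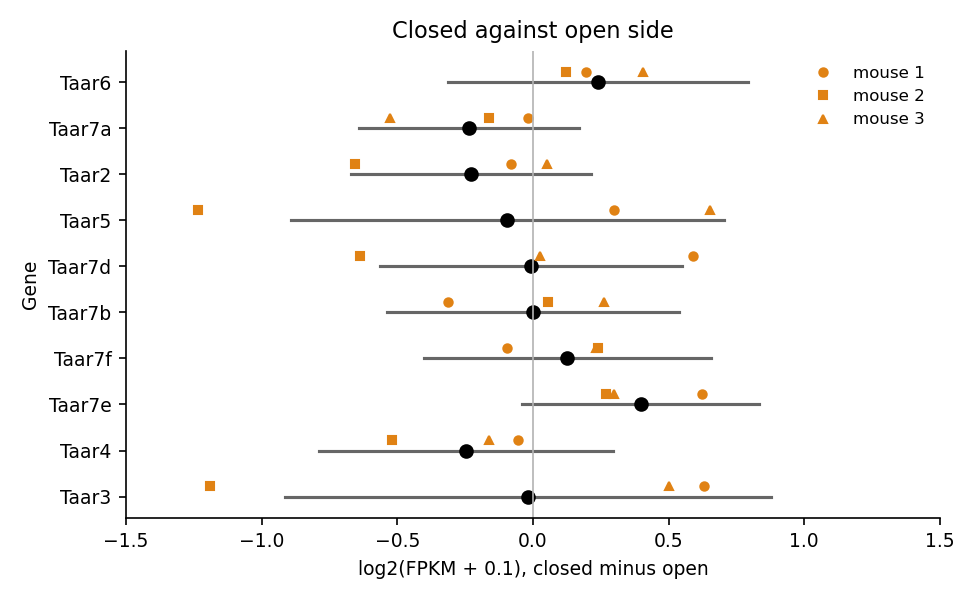
Difference between sides on log2(FPKM + 0.1), closed minus open, for the 10 Taar genes in order of level. Black points are the differences fitted without the mouse as a block, with their 95% intervals in grey, all of which cross 0. Orange marks are the differences within each mouse.

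Taar2, the gene of the cluster with a split coding sequence, measured 2.26, 1.89 and 2.43 FPKM in the closed and 2.40, 3.04 and 2.34 FPKM in the open libraries of mice 1, 2 and 3. The sides overlapped, and the closed side was lower in 2 mice and higher in 1. Its log2 change was -0.23 (standard error, SE, 0.19).

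Taar3, which responds to isoamylamine in mouse, measured 0.787, 0.560 and 1.13 FPKM in closed and 0.473, 1.40 and 0.769 FPKM in open libraries. These rest on 12, 15 and 25 against 13, 30 and 22 fragments, and the exact Poisson interval of the lowest value was 0.252 to 0.809 FPKM, which covers counting error only. Mouse 2 ran against the other mice: its closed side was the lower by 1.19 on the log2 scale, while the closed sides of mice 1 and 3 were higher by 0.63 and 0.50. The fitted log2 change of -0.02 (SE 0.39) took the opposite sign without the closed library of mouse 2 (0.20) and without its open library (0.35).

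Taar4, a receptor for beta-phenylethylamine, a compound rich in carnivore urine, measured 1.55, 1.29 and 2.05 FPKM in closed and 1.62, 1.89 and 2.31 FPKM in open libraries. The closed side was the lower in 3 of 3 mice, a pattern seen in 10.1% of all rows, although the sides overlapped. The log2 change was -0.25 (SE 0.24).

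Taar5, the receptor for trimethylamine, an odor of male mouse urine, measured 2.82, 1.18 and 2.87 FPKM in closed and 2.27, 2.92 and 1.79 FPKM in open libraries. The closed library of mouse 2 was the lowest of the 6 and the open library of the same mouse the highest. Within mice the log2 differences were 0.30, -1.23 and 0.65, so that mouse 2 again ran against the others. The fitted log2 change was -0.09 (SE 0.35), and it turned to 0.31 without the closed library of mouse 2 and to 0.08 without the open one.

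Taar6, the member with the most fragments, measured 6.84, 4.71 and 8.53 FPKM in closed and 5.96, 4.32 and 6.42 FPKM in open libraries, from 105, 127 and 190 against 165, 93 and 185 fragments. The closed side was the higher in 3 of 3 mice, a pattern seen in 7.73% of all rows. The highest and the lowest values both came with their mouse, mouse 2 being low and mouse 3 high on either side, and the sides overlapped. The log2 change was 0.24 (SE 0.24), with a 95% interval from -0.31 to 0.79. With the mouse as a block the SE was 0.13 and the unadjusted p 0.124 in limma.

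The Taar7 group, whose known ligands in rodents include tertiary amines, split in direction. Taar7e measured 2.18, 1.84 and 2.15 FPKM in closed and 1.38, 1.51 and 1.73 FPKM in open libraries. It was the only 1 of the 10 members whose sides did not overlap, which held for 4.08% of all rows. Its log2 change was 0.40 (SE 0.19, 95% interval -0.04 to 0.83, unadjusted p = 0.0696 in limma).

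Taar7a lay the other way, at 3.24, 2.69 and 2.66 FPKM in closed and 3.28, 3.02 and 3.88 FPKM in open libraries. In each of the 3 mice its open value was the higher, a pattern seen in 10.1% of all rows, and the log2 change was -0.24 (SE 0.18). The ratio of Taar7e to Taar7a, which have the same coding length, was chosen after the values were seen and was given no test. It stood at 0.673, 0.684 and 0.806 in closed and 0.421, 0.50 and 0.444 in open libraries, from 35, 52 and 50 against 40, 34 and 52 fragments of Taar7e and 52, 76 and 62 against 95, 68 and 117 fragments of Taar7a. The ratio was thus higher in each closed library than in any open one, while Taar7e shares more of its sequence with other copies than any other member. The pair joins the member with the highest log2 change to one with a negative change, a choice that favours such a separation. The ratio of Taar6 to Taar4, also computed, overlapped between sides, at 4.41, 3.65 and 4.16 in closed and 3.69, 2.28 and 2.78 in open libraries. Other pairs of members were not compared in this way.

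The other Taar7 genes lay near 0. Taar7b measured 1.37, 1.81 and 2.41 FPKM in closed and 1.73, 1.73 and 1.99 FPKM in open libraries, a log2 change of 0.00 (SE 0.24). Taar7d measured 2.49, 1.74 and 2.23 against 1.63, 2.76 and 2.19 FPKM, a log2 change of -0.01 (SE 0.24). Taar7f, a receptor for N-methylpiperidine, measured 1.81, 1.60 and 2.28 against 1.94, 1.33 and 1.92 FPKM, a log2 change of 0.13 (SE 0.23). In these 3 genes the sides overlapped, the mice differed in direction and the sign changed when single libraries were left out.

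Summed over the 10 genes the sides were close. The sum was 25.4, 19.3 and 28.7 FPKM in closed and 22.7, 23.9 and 25.3 FPKM in open libraries, that is 24.5 ± 4.78 against 24.0 ± 1.33 FPKM (SD, n = 3 each), a log2 difference of 0.01. It was higher on the closed side in mice 1 and 3 and lower in mouse 2. The Taar7 genes made up 40.8% to 50.1% of the sum in the 6 libraries, and Taar6 18.1% to 29.7%.

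As estimated, the members differed in how far libraries of a side varied beyond counting error. With 3 libraries a side each variance ratio is imprecise, and differences between the ratios were not tested. For Taar6 the spread within a side was 25.5% of the mean where the fragments give a counting error of 8.53%, a variance 8.94 times as large. Taar5 followed with a variance ratio of 5.69 and Taar3 with 3.97. For Taar2 and Taar7a the spread was close to counting error, with variance ratios of 1.04 and 1.14, and for Taar7e it was below it, at 0.417. Taar4, Taar7b, Taar7d and Taar7f lay between 1.58 and 2.49.

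**Figure D3:**
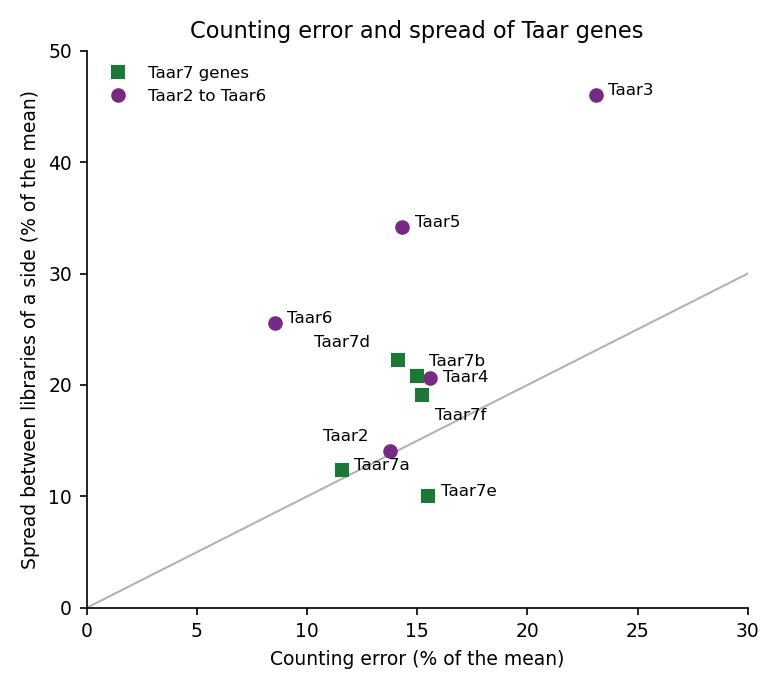
Spread between libraries of a side against the counting error expected from the recovered fragments, both as a percent of the mean, for the 10 Taar genes; the line marks equality. Taar6, Taar5 and Taar3 lie farthest above the line in variance ratio and Taar7e lies below it.

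Members moved between libraries in different company. Pearson correlations on log2(FPKM + 0.1) over the 6 libraries are given as a description, since the libraries come from 3 mice and share depth. Among 45 pairs of members 34 had an r above 0, with a median of 0.23. Taar6 and Taar7f had the highest at 0.94, while Taar3 and Taar7d stood at 0.88 and Taar2 and Taar5 at 0.76. Taar6 had an r of 0.02 with Taar7d and of -0.13 with Taar2.

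**Figure D4:**
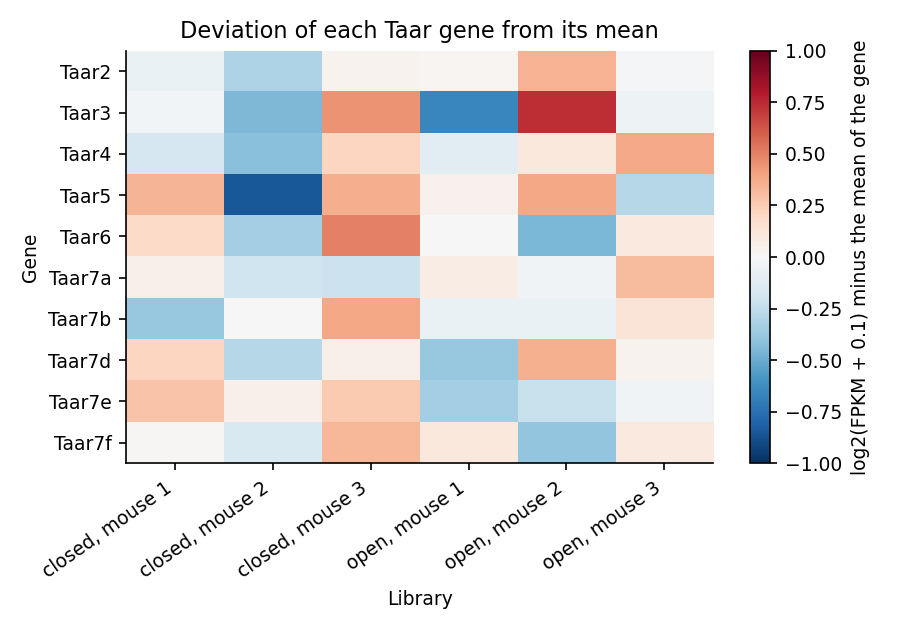
Deviation of each Taar gene from its own mean in each of the 6 libraries, in log2 units (red above, blue below). Taar6 and Taar7f are both lowest in the open library of mouse 2, where Taar2, Taar3, Taar5 and Taar7d are highest.

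The same genes differed in their r with receptors of the other family. Summed over 1101 Olfr rows, the level was 2115, 1816 and 2666 FPKM in closed and 2154, 1667 and 2281 FPKM in open libraries. Taar7f had an r of 0.98 and Taar6 one of 0.97 with this sum, whereas Taar2 had -0.16, Taar7d -0.13 and Taar3 -0.04. For Taar2, Taar7a and Taar7e the spread within a side was near or below counting error, with variance ratios of 1.04, 1.14 and 0.417. The part of counting error in the r of these genes, here and below, was not tested.

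Genes that mark regions of the olfactory epithelium were read in the same libraries. Nqo1, an enzyme of neurons in the dorsal region, had an r of 0.71 with Taar7a, 0.66 with Taar5, 0.62 with Taar7d and 0.60 with Taar2. Its r was 0.48 with Taar4, 0.32 with Taar3, 0.14 with Taar6, -0.08 with Taar7f, -0.10 with Taar7e and -0.46 with Taar7b. Ncam2, an adhesion molecule of neurons outside the dorsal region, had an r of 0.92 with Taar7f, 0.81 with Taar6 and 0.72 with Taar7b, and of -0.42 with Taar2 and -0.38 with Taar7d. Acsm4, another dorsal gene, ranged from -0.73 with Taar7f to 0.84 with Taar7d, and stood at 0.17 with Taar7a and 0.14 with Taar4. The open library of mouse 2 had both the highest Acsm4 and the lowest Ncam2 level, at 315.9 and 12.1 FPKM. Of the guidance receptors, Robo2, found on dorsal axons, was positive with all 10 members, from 0.09 with Taar7d to 0.85 with Taar4. Nrp2, found on ventral axons, ranged from -0.57 with Taar7d to 0.86 with Taar7b. Of these 5 genes 0 passed the test between sides (limma, unadjusted p under 0.05 for none). The part of the sampled region in the levels of the receptors was not tested.

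Levels were also read against those of the Olfr genes. Taar6 lay above 96.9% of the 1101 Olfr rows by mean FPKM, Taar7a above 83.3%, Taar2 above 73.8%, Taar4 above 60.04% and Taar3 above 28.5%. The 15 rows of the family are 1.34% of the 1116 receptor rows of both kinds and held 1.17% to 1.66% of their summed FPKM. Among 753 Olfr rows with a mean between those of Taar3 and Taar6 the median log2 change was 0.09, the quartiles were -0.08 and 0.29, and 0 were called (limma, adjusted). Of the 10 members 5 had a change between these quartiles, namely Taar3, Taar6, Taar7b, Taar7d and Taar7f.

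**Figure D5:**
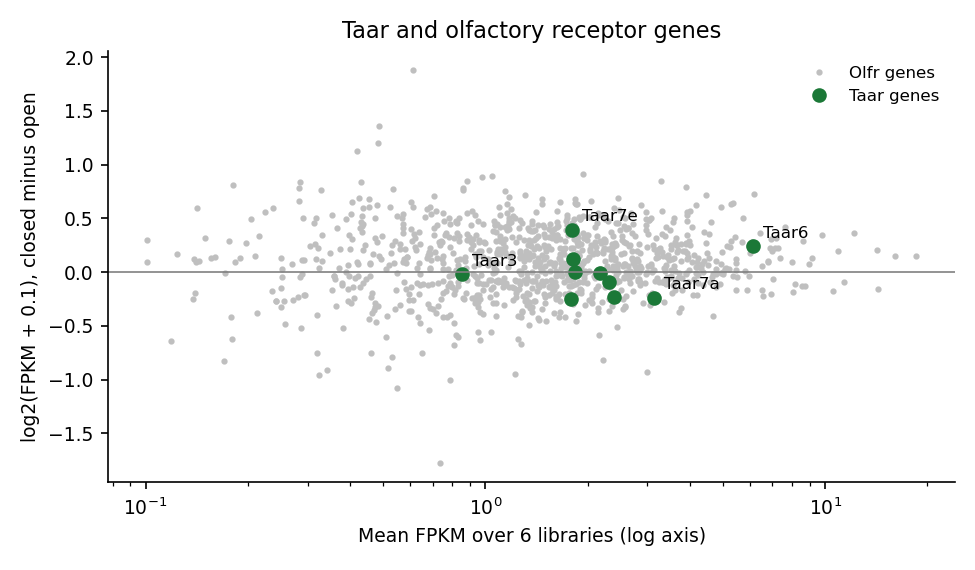
Difference between sides on log2(FPKM + 0.1), closed minus open, against mean FPKM over the 6 libraries (log axis), for the 10 Taar genes (green) and the 1067 Olfr genes with a mean of at least 0.1 FPKM (grey). The Taar genes lie inside the cloud of Olfr genes of like level.

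The other rows of the family were mostly low. Taar9, the last odorant receptor gene of the cluster, measured 2.43 ± 0.356 FPKM in closed and 2.59 ± 0.430 in open libraries (SD, n = 3 each). Taar8b measured 0.496 ± 0.175 against 0.670 ± 0.152 FPKM, and Taar8a and Taar8c were behind 1 to 6 and 2 to 7 fragments per library. Taar1 was listed at 0 in every library. None of the 4 tested rows was called (limma adjusted p = 0.999999, unadjusted p under 0.05 for none).

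Of 7 genes on the flanks of the cluster 0 were called, also at an unadjusted p under 0.05 (limma), and 1 lay above and 6 below 0, with a median log2 change of -0.20. Moxd1, a monooxygenase-like gene, had a log2 change of -0.26 (SE 0.17). Vnn1, a pantetheinase, measured 0.338 ± 0.157 against 0.432 ± 0.0484 FPKM (SD, n = 3 each).

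Of 12 genes of the mature neuron and its transduction, which these neurons share, 0 were called, with 11 above and 1 below 0 and a median log2 change of 0.28 against -0.01 over all rows. By the size of their t value the leading ones were the phosphodiesterase Pde4a at 0.47 (SE 0.19), the chloride channel Ano2 at 0.49 (SE 0.20), the channel subunit Cnga4 at 0.41 (SE 0.24) and the stomatin-like Stoml3 at 0.41 (SE 0.26). Pde4a and Ano2 were below 0.05 before adjustment and no other gene of the list was. Of 14 genes for receptor choice and trafficking 0 were called, and none was below 0.05 unadjusted (limma), with 12 above 0 and a median of 0.09. Among its leading genes, Eif2ak3, a kinase of the unfolded protein response, had a log2 change of -0.21 (SE 0.16), and Rtp1, a chaperone that carries odorant receptors to the membrane, one of 0.24 (SE 0.18).

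Markers of other cells in the mucosa were at hand in every library. The summed level of 4 sustentacular cell genes was 1621 to 1894 FPKM in closed and 1888 to 2513 FPKM in open libraries, and that of 6 immature neuron genes 1895 to 2303 against 1771 to 2453 FPKM. The 4 gland genes were summed at 134.0 to 308.9 FPKM in closed and 961.4 to 1505 in open libraries, but the 4 were not alike. Aqp5, a water channel, measured 124.2 ± 2.56 FPKM in closed and 137.1 ± 28.8 in open libraries (SD, n = 3 each), with overlapping sides and a log2 change of -0.12 (SE 0.16). The gland genes Obp1a, Bpifb9a and Bpifb9b were lower in each closed library than in any open one, with log2 changes of -4.35, -6.26 and -6.66 that did not pass the adjusted test. Bpifb9a and Bpifb9b were at 0 in the closed library of mouse 2, so that the size of their log2 change depends on the offset of 0.1. Within mice 1, 2 and 3 the log2 differences were -1.52, -9.59 and -7.66 for Bpifb9a and -1.30, -11.5 and -7.19 for Bpifb9b. No gene of the 11 marker lists was called by limma, 4 were below 0.05 before adjustment (these 3 and 1 neutrophil gene), and none was at 0 in all libraries. The median log2 change was 0.04 for immature neurons, 0.14 for globose basal and -0.25 for horizontal basal cells, -0.22 for sustentacular cells and -5.30 for glands. It was 0.11 for other chemosensory and -0.39 for ciliated cells, 0.50 for neutrophils, -0.22 for macrophages, -0.37 for glia and -0.23 for endothelium. Of the ciliated cell genes 1 lay above and 2 below 0, and of the immature neuron genes 5 above and 1 below. In each other marker list all genes had the same sign, but sizes differed within lists. The part of these cells in the Taar values was not tested.

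By a rule on likeness, the 5 genes with the highest r to the summed Taar level over the 6 libraries were Gbf1, a Golgi exchange factor, at 0.998, Mfn2, a mitochondrial fusion protein, at 0.996, the kinase Stk35 at 0.996, the diphthamide enzyme Dph6 at 0.996 and the amino acid transporter Slc1a4 at 0.996. They were picked for this r out of 13924 candidate rows, of which 524 had an r above 0.9. With 6 libraries the likeness is given as a description and was not tested.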

How the data were processed

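RNA-seq of olfactory mucosa was analysed from the authors' table of FPKM per gene and library. Per the submitters' processing notes, Cufflinks and build mm9 were used; no source used here gives the aligner, annotation or strand setting. The authors also deposited, for every library, a read count, an aligned fraction, an RNA integrity score and a 28S over 18S ratio. All 6 library columns were used. Per the deposited sheet, libraries of 1 number come from 1 mouse. Deviations from side means correlated at 0.14, 0.098 and 0.17 within mice and at -0.12 to -0.03 between mice.

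The 17987 rows whose mean reached 0.1 FPKM were fitted on log2(FPKM + 0.1) with limma 3.58.1 in R 4.3.3 (eBayes with trend), side as the only term, and Benjamini-Hochberg adjustment over all rows at 0.05. The low offset and floor were kept for receptors at low FPKM. The replicate block, other offsets, floors and scalings and each library left out were alternatives. Fits were tested on simulated data. Fragments were recovered from FPKM with transcript lengths of RefSeq (GENCODE M21 for Taar2); intervals cover counting error only. Coding sequences (GENCODE M21, GRCm38) were aligned with Biopython 1.88. Members and lists were chosen with earlier results of these data known. Named genes were the 10 members, up to 4 genes a list by t value (beyond that rule, all 5 zone genes enter a description of correlations, Taar1, which was not tested, is named as listed at 0, and all 4 gland genes are named), and the 5 rows most like the summed level; the ratio of Taar7e to Taar7a was chosen after its values were seen.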

Additional observations from a re-analysis of the deposited data

How the results depend on the processing

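None of the 10 Taar genes was past the test under any of the 16 alternatives (adjusted p from 0.9998 to 1 in limma); the lowest unadjusted p was 0.0313, for Taar7e with quantile normalization, the only 1 under 0.05. With the replicate block, that is the mouse as a term, 0 members and 5 of all rows were called against 6 without it, so that the block changed no call among the members. The log2 difference of the summed level stayed at 0.01 by design, since each mouse gave 1 library from either side. The replicate block, the other floors at the same offset, a robust variance and leaving out small RNA rows cannot alter a log2 change. Their signs were therefore fixed in advance and are counted as kept. Of 158 pairs of a member and an alternative, 144 kept the direction and 14 took the opposite sign. Apart from left-out libraries these were Taar7b with libraries scaled to equal summed Olfr FPKM (-0.10) and Taar7d with quantile normalization (0.037). With single libraries left out the log2 change ranged from -0.35 to 0.35 for Taar3, -0.30 to 0.31 for Taar5, -0.19 to 0.19 for Taar7b, -0.20 to 0.17 for Taar7d and -0.041 to 0.24 for Taar7f. Taar2, Taar4, Taar6, Taar7a and Taar7e kept their sign under every alternative that could change it. With single libraries left out their size moved, from -0.30 to -0.11 for Taar2, -0.41 to -0.10 for Taar4, 0.05 to 0.47 for Taar6, -0.32 to -0.14 for Taar7a and 0.33 to 0.48 for Taar7e. The count of rows called over the whole table was 29 with equal summed Olfr FPKM, which moved the median of all rows from -0.01 to -0.12, and the cause of the higher count was not tested. It ran from 3 (without closed replicate 1) to 12 (without closed replicate 3) with libraries left out. The log2 difference of the summed level lay between -0.11 and 0.17 with libraries left out and at -0.10 with equal summed Olfr FPKM. With a floor of 1 FPKM Taar3 was not tested. Taar3 had the fewest fragments of the members, at 12 to 30 per library. Its spread within a side, 46.0% of the mean, was also larger than its counting error of 23.1%.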
